A study of Homo sapiens with 15 samples.

Results

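The mRNAs of the RAB small GTPases were followed from U2OS cytosolic extract into the material pelleted from it. The rule for members used name and level alone, though it was set with earlier results of these data known. It took protein-coding genes called RAB and a number, from RAB1A to RAB43, without RAB-interacting proteins or pseudogenes. Every one of the 5 conditions had to hold 10 counts or more in 2 replicates or more. The count files held 63 such genes and 56 passed, out of 16612 genes of 57500 that passed in all.

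RAB proteins are molecular switches that sit on a membrane when bound to GTP and are held in the cytosol when bound to GDP. Exchange factors load them with GTP, GTPase-activating proteins (GAPs) switch them off, and effectors read the GTP-bound form to tether, move or fuse vesicles. Each membrane along the secretory and endocytic routes carries its own RABs, and many of them come as close relatives encoded by separate genes.

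U2OS is a human osteosarcoma cell line, and all 15 libraries came from cytosolic extracts of this single line. Extract was kept for 2 h under in vitro translation conditions with 250 nM double-stranded RNA (dsRNA), with silvestrol at 2 µg/ml, with 1% polyethylene glycol (PEG) or with no addition (mock), and the pellet was then collected by centrifugation. The input was extract that was not pelleted, and each of the 5 groups had 3 biological replicates. The labels call the cells wild type, whereas the study's methods speak of condensates of YFP-tagged G3BP1, a core stress granule protein. dsRNA activates the kinase PKR, silvestrol blocks the translation initiation helicase eIF4A and PEG is a crowding agent. The pellet was defined by centrifugation, so it holds whatever sedimented.

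Poly(A)-selected RNA gave 15341973 to 46939993 counted reads per library, with a median of 35584710. The PEG pellets had the lowest group median, 25485069, with a range of 15341973 to 25675182, while input replicate 1 had 23101982. Of 8 mesenchymal markers 7 were above 1 CPM, counts scaled to library size, in every group, whereas COL1A2, which osteoblasts express, was nearly absent at 0.0389 to 0.314 CPM. Of 8 markers of other cell types only EPCAM had a mean above 1 CPM in any group, while single libraries reached 1.28 CPM for CDH1 and 1.18 CPM for KRT5. The 13 mitochondrially encoded mRNAs summed to 3630 to 4654 CPM in input, 9704 to 12211 in mock, 9446 to 14216 in dsRNA, 10684 to 13069 in silvestrol and 4653 to 7080 in PEG pellets, and their part in the values given here was not tested. A count gives an mRNA's share of its library, so a loss of 1 mRNA and a gain of the others cannot be told apart.

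Levels per length were set first, because they decide how well each member was measured. Per kilobase of exon, RAB1A, which governs transport from the endoplasmic reticulum (ER) to the Golgi, had the highest level in input, 166 ± 36.0 CPM per kb (SD, n = 3), or 15% of the members' summed level. RAB13, a GTPase of exocytic traffic, followed at 109 ± 20.0, RAB1B, the close relative of RAB1A, at 106 ± 6.84 and RAB7A, the late endosomal RAB, at 102 ± 4.51 CPM per kb. The last 3 lay within the SD of RAB13 and could not be ordered. At the other end stood RAB17 at 0.151 ± 0.0646 and RAB3D at 0.158 ± 0.0494 CPM per kb, which also overlapped.

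Close relatives encode nearly the same protein core with different codons, which can be read directly from their mRNAs. Shown for 4 pairs are the 10 codons (30 bases) that start at the tryptophan codon of the conserved nucleotide-binding motif, 5′ to 3′, from GENCODE 29 transcripts on GRCh38, with the last base of each codon in capitals. Both partners of these pairs were kept, and their proportions within a library are compared further on, as are those of other pairs. RAB40B/RAB40C, RAB6A/RAB6B and RAB9A/RAB9B are among the pairs with the largest shifts there, so the choice is not independent of those results.
RAB1A: tgGgaCacAgcAggCcaGgaAagAttTcgA
RAB1B: tgGgaCacAgcGggCcaGgaAcgGttCcgG
RAB40B: tgGgaTacTtcAggCcaGggAagAttTtgT
RAB40C: tgGgaCacGtcGggCcaGggCcgGttCtgC
RAB6A: tgGgaTacTgcGggTcaGgaAcgTttCcgT
RAB6B: tgGgaCacAgcTggTcaGgaGagGttCcgC
RAB9A: tgGgaCacGgcAggTcaGgaGcgAttCcgA
RAB9B: tgGgaCacTgcAggGcaGgaAcgTttCaaG
RAB1A and RAB1B differed at 5 of the 30 bases, 4 of them last codon bases, and last bases were G or C in 4 of 10 codons of RAB1A and 8 of 10 of RAB1B. RAB40B and RAB40C differed at 8 bases, 7 of them last bases, with G or C at 3 and at 10 of 10. RAB6A and RAB6B differed at 7 bases, 6 of them last bases, and RAB9A and RAB9B at 7, 5 of them last bases, with G or C at 4 and 7 in the RAB6 pair and at 6 and 6 in the RAB9 pair. Over the whole coding sequence, G or C stood at 41.5% of last codon positions in RAB1A and 76.1% in RAB1B, at 85.3% in RAB40B and 92.2% in RAB40C, at 44.7% in RAB6A and 76.4% in RAB6B, and at 39.3% in RAB9A and 54.7% in RAB9B. The stretches lie within exon 4 of 6 of RAB1A (chr2:65091049-65091078, minus strand) and of RAB1B (chr11:66272365-66272394, plus strand), and within exon 4 of 8 of RAB6A (chr11:73718846-73718875, minus strand) and of RAB6B (chr3:133841346-133841375, minus strand). Those of RAB9A (chrX:13708927-13708956, plus strand) and RAB9B (chrX:103825575-103825604, minus strand) lie in exon 3 of 3. The RAB40B stretch joins exons 2 and 3 of 6 (chr17:82661020-82664497, minus strand) and that of RAB40C joins exons 3 and 4 of 7 (chr16:617267-618227, plus strand).

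The first comparison asked which RAB mRNAs were over- or under-represented in pellets that formed with no stress agent added. In mock pellets the family was shifted down: 17 of the 56 RAB mRNAs (30.4%) were lower than in input, where 15.8% of all genes were lower, and 5 (8.93%) were higher, where 17.6% of all genes were higher. Calls were made with edgeR's quasi-likelihood test at an adjusted p under 0.05 over all genes. The median log2 fold change of the members was -0.35, against 0.00 over all genes, and single members ran from -0.97 to 1.23. Summed over the 56 members, levels were 4294, 3560 and 3641 CPM in the input replicates and 3149, 2674 and 2660 CPM in the mock replicates, a ratio of means of 73.8%. With the replicate number as a block, 35 members were lower, beside 30.1% of all genes, and 9 higher, beside 32.5%. After removal of each library's trend with GC content, 14 were lower, beside 14.2% of all genes, and 3 higher, beside 13.3%, and the median of the members was -0.23. Leaving out mock replicate 3 left 6 lower and leaving out mock replicate 2 left 9, out of 17. The same fits left 1017 and 1229 of all genes lower, out of 2625.

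In dsRNA pellets 25 members (44.6%) were lower, beside 19.6% of all genes, and 6 (10.7%) higher, beside 21.1%, with a median of -0.43. Without dsRNA replicate 2 or 3, 14 were lower, and over all genes 1960 or 1972 in place of 3261. In silvestrol pellets 23 (41.1%) were lower, beside 18.1% of all genes, and 5 (8.93%) higher, beside 19.4%, with a median of -0.34. Without silvestrol replicate 2, 10 were lower, and without silvestrol replicate 3, 11. All genes had 1711 and 1839 lower in these fits, in place of 3007. With the replicate block the silvestrol counts were 33 lower, beside 28.7% of all genes, and 8 higher, beside 30.8%. That block gave 33 lower and 9 higher in dsRNA pellets, where 4839 and 5147 of all 16612 genes were so. In PEG pellets it gave 20 lower and 11 higher, where 4624 and 4656 of all genes were so. In PEG pellets 18 (32.1%) were lower, beside 25.9% of all genes, and 9 (16.1%) higher, beside 25.5%, with a median of -0.28. The summed level stood at 72.4%, 72.6% and 88.5% of input in dsRNA, silvestrol and PEG pellets. Scaled to total count it was 78.8% in mock, 76.9% in dsRNA, 77% in silvestrol and 72.1% in PEG pellets, so PEG went from nearest to input to furthest below it. All 4 pellet groups were set against the same 3 input libraries, so agreement among them is not independent. Scaling to the total count alone, which moved the median of all genes to -0.36 in PEG pellets, gave a median of -0.62 for the members, with 35 lower, beside 41.5% of all genes, and 3 higher, beside 14.1%, there, RAB24, RAB26 and RAB4B. The PEG count of 9 higher became 5 without PEG replicate 2 and 14 without input replicate 1. Over all genes the count of 4228 higher became 2944 and 5195.

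The correction for GC content also changed which members were called. In dsRNA pellets it gave 17 lower, beside 17.3% of all genes, and 5 higher, beside 16.2%, with a median of -0.26. It gave 16 lower, beside 15.9%, and 3 higher, beside 14.4%, in silvestrol pellets (median -0.23), and 19 lower, beside 26%, and 7 higher, beside 23.7%, in PEG pellets (median -0.15). Of the calls made without it, it ended 9 of 22 in mock, 13 of 31 in dsRNA, 12 of 28 in silvestrol and 6 of 27 in PEG pellets, and it added 4, 4, 3 and 5. In mock pellets 8 calls held both with it and without any single library, those of RAB11A, RAB13, RAB24, RAB3A, RAB40C, RAB4A, RAB5A and RAB9A. The same was so for 14 calls in dsRNA, 11 in silvestrol and 18 in PEG pellets.

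**Figure D1:**
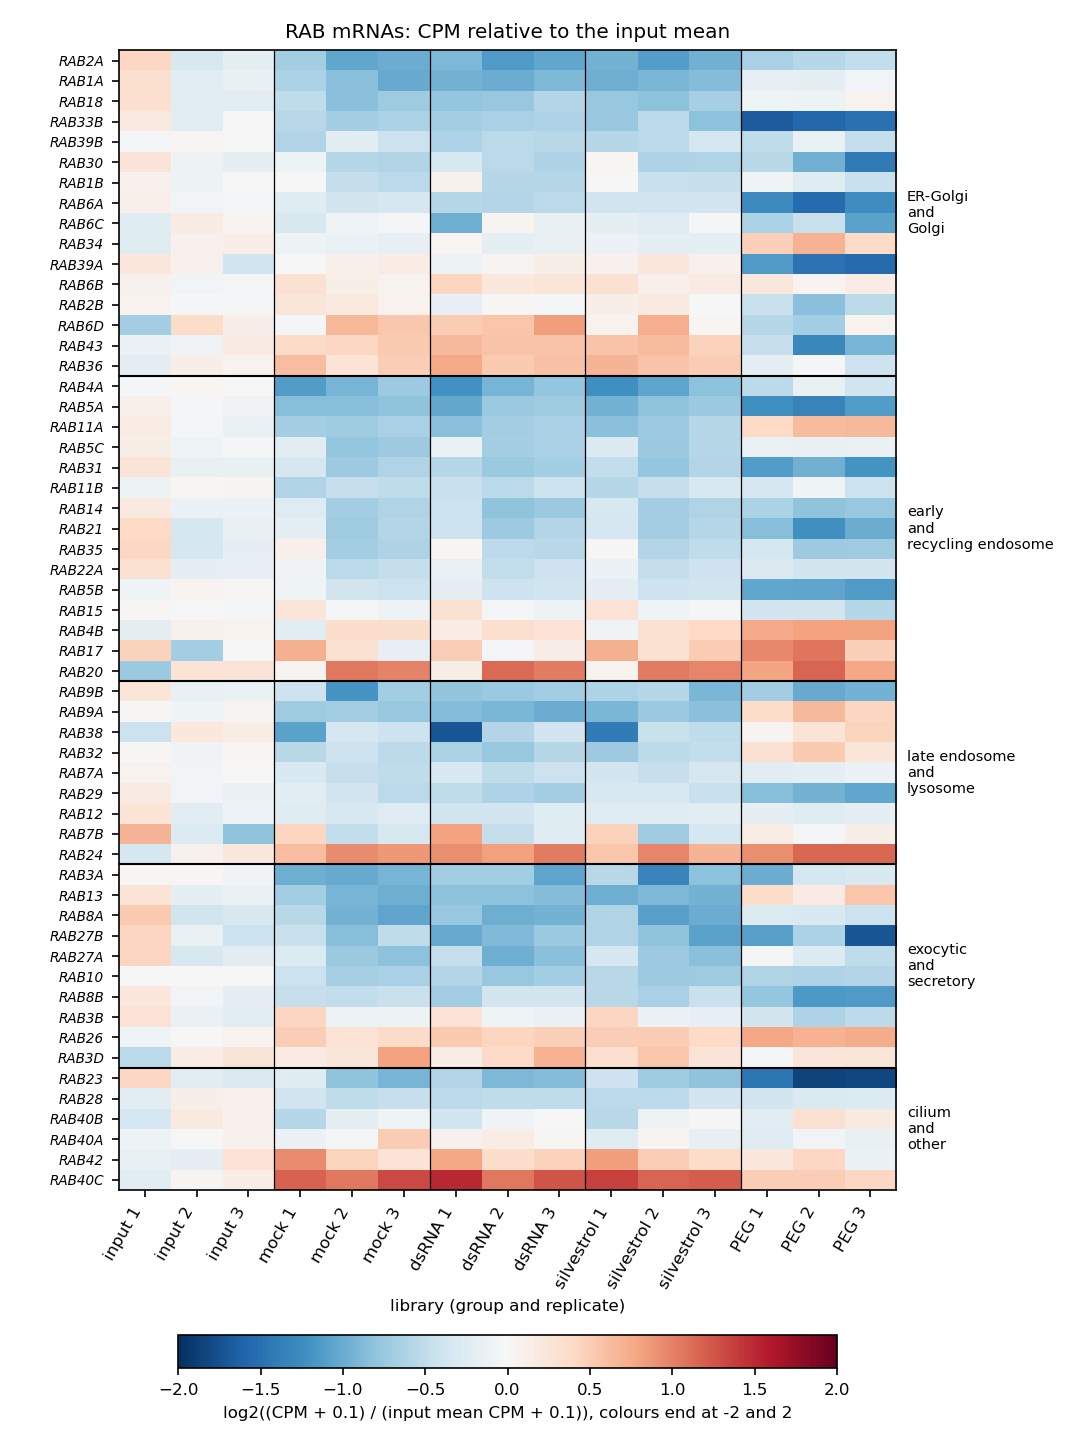
Level of each of the 56 RAB mRNAs (rows, grouped by the membrane their proteins serve) in each of the 15 libraries (columns), as log2 of CPM over the mean of the 3 input libraries with 0.1 CPM added to both. Blue is below and red above the input mean: RAB2A, RAB1A, RAB4A and RAB5A are blue in mock, dsRNA and silvestrol pellets, RAB40C and RAB24 are red, and RAB11A, RAB9A and RAB13 turn from blue to red in PEG pellets.

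Among the 16 RABs of the ER and Golgi, 4 were lower and 2 higher in mock pellets, with a median of -0.20. It was 6 lower and 3 higher in dsRNA, 6 and 2 in silvestrol, and 6 and 1 in PEG pellets. The lower members were 25%, 37.5%, 37.5% and 37.5% of the group, where all genes had 15.8%, 19.6%, 18.1% and 25.9% lower. Those higher were 12.5%, 18.8%, 12.5% and 6.25%, beside 17.6%, 21.1%, 19.4% and 25.5% of all genes. Gene positions are on GRCh38. RAB1A (chr2:65070701-65130106, minus strand), the ER-to-Golgi RAB, was at 613, 418 and 442 CPM in input and 317, 274 and 245 CPM in mock pellets. In dsRNA pellets RAB1A had 256, 248 and 263, in silvestrol pellets 249, 261 and 269.8 and in PEG pellets 437, 436 and 471 CPM. All mock, dsRNA and silvestrol libraries lay below all input libraries, whereas PEG libraries overlapped input. Its log2 fold change against input was -0.78 ± 0.18 in mock, -0.90 ± 0.17 in dsRNA, -0.89 ± 0.17 in silvestrol and -0.09 ± 0.18 in PEG pellets (SE). For RAB1A the adjusted p-values were 0.0159, 0.00518, 0.00623 and 0.68. The call was lost in mock without mock replicate 2 or 3, and 21.2% of its exon bases are shared with an antisense gene. RAB1B (chr11:66268533-66277492, plus strand), which has the same role, was at 226, 198 and 212 CPM in input and 214, 152 and 146 CPM in mock pellets. In dsRNA pellets RAB1B had 224, 143 and 143, in silvestrol pellets 214, 155 and 154 and in PEG pellets 203, 179 and 155 CPM. The groups overlapped, with pellet replicate 1 near the input level, and its log2 fold change against input was -0.28 ± 0.17 in mock, -0.28 ± 0.19 in dsRNA, -0.25 ± 0.16 in silvestrol and -0.20 ± 0.14 in PEG pellets (SE). For RAB1B the adjusted p-values were 0.229, 0.281, 0.247 and 0.26. The replicate block gave the mock value an adjusted p of 0.00711. With the GC correction RAB1B was called lower in each group, at -0.68 in mock (adjusted p = 0.0481), -0.76 in dsRNA, -0.70 in silvestrol and -0.52 in PEG pellets, and RAB1A stood at -0.56 in mock.

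RAB2A, which acts at the Golgi and in fusion with lysosomes, was at 172, 104 and 113 CPM in input and 80, 63.3 and 65 CPM in mock pellets. In dsRNA pellets RAB2A had 69.5, 59.3 and 63.2, in silvestrol pellets 67.6, 60.4 and 66.6 and in PEG pellets 82.9, 87.6 and 92.6 CPM. Every pellet library was below every input library, and its log2 fold change against input was -0.87 ± 0.21 in mock, -0.98 ± 0.20 in dsRNA, -0.97 ± 0.20 in silvestrol and -0.53 ± 0.20 in PEG pellets (SE). For RAB2A the adjusted p-values were 0.0179, 0.00701, 0.00751 and 0.0556. Its call was lost in mock without mock replicate 2 or 3. RAB33B (chr4:139453232-139476609, plus strand), a Golgi RAB that binds the autophagy factor ATG16L1, was at 17.2, 12.8 and 14.9 CPM in input and 10.1, 9.26 and 9.59 CPM in mock pellets. In dsRNA pellets RAB33B had 9.32, 9.54 and 9.77, in silvestrol pellets 8.82, 10.4 and 8.44 and in PEG pellets 4.66, 4.99 and 5.25 CPM. The 3 PEG libraries were the lowest, below every other pellet library, and its log2 fold change against input was -0.59 ± 0.14 in mock, -0.61 ± 0.15 in dsRNA, -0.67 ± 0.16 in silvestrol and -1.54 ± 0.17 in PEG pellets (SE). For RAB33B the adjusted p-values were 0.0186, 0.0134, 0.0137 and 0.000333. The GC correction ended its mock, dsRNA and silvestrol calls but not that in PEG, and calls were lost in mock without mock replicate 2 or 3 or input replicate 3 and in silvestrol without silvestrol replicate 3.

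RAB6A (chr11:73675638-73761137, minus strand), which steers traffic from endosomes through the Golgi back to the ER, was at 116, 105 and 105 CPM in input and 91.8, 84.3 and 86.5 CPM in mock pellets. In dsRNA pellets RAB6A had 73.5, 72.6 and 75, in silvestrol pellets 82.5, 83 and 83.8 and in PEG pellets 44.9, 37.5 and 46.1 CPM. Levels in PEG pellets were less than those of any other library, and its log2 fold change against input was -0.28 ± 0.10 in mock, -0.52 ± 0.11 in dsRNA, -0.36 ± 0.10 in silvestrol and -1.30 ± 0.13 in PEG pellets (SE). For RAB6A the adjusted p-values were 0.0725, 0.00744, 0.0298 and 0.000271. Its close relative RAB6B (chr3:133824239-133895836, minus strand) was at 54.7, 49.8 and 50.1 CPM in input and 63.9, 56.1 and 53.9 CPM in mock pellets. In dsRNA pellets RAB6B had 69.5, 59.5 and 61, in silvestrol pellets 63.4, 55.1 and 58 and in PEG pellets 59.4, 53.5 and 57.1 CPM. Here the dsRNA and silvestrol libraries lay above input, and its log2 fold change against input was 0.21 ± 0.11 in mock, 0.34 ± 0.12 in dsRNA, 0.22 ± 0.11 in silvestrol and 0.18 ± 0.12 in PEG pellets (SE). For RAB6B the adjusted p-values were 0.191, 0.0477, 0.145 and 0.223. The copies RAB6C and RAB6D are nearly identical in sequence to RAB6A, so reads among the 3 may be split. RAB6A lost its call in silvestrol with the GC correction (-0.13) and without silvestrol replicate 2 or 3 or input replicate 2 or 3, and RAB6B in dsRNA without dsRNA replicate 1 or 2 or 3 or input replicate 2 or 3.

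RAB43 (chr3:129087569-129122801, minus strand), a RAB of the ER and Golgi, was at 10.2, 10.6 and 12.5 CPM in input and 14.5, 14.9 and 16.1 CPM in mock pellets. In dsRNA pellets RAB43 had 17.4, 16.5 and 16.6, in silvestrol pellets 16.6, 17.3 and 15.4 and in PEG pellets 8.04, 4.5 and 5.79 CPM. It was above input in every mock, dsRNA and silvestrol library and below it in every PEG library. The log2 fold change against input was 0.48 ± 0.13 in mock, 0.64 ± 0.13 in dsRNA, 0.59 ± 0.13 in silvestrol and -0.83 ± 0.21 in PEG pellets (SE). For RAB43 the adjusted p-values were 0.0264, 0.00731, 0.0111 and 0.011. With the GC correction it stood at 0.06 in mock and was not called in mock, dsRNA or silvestrol pellets, and 79.3% of its exon bases are shared with the read-through gene ISY1-RAB43. Calls of RAB43 were lost in mock without mock replicate 2 or 3 or input replicate 1 or 2 and in silvestrol without silvestrol replicate 2 or input replicate 2. RAB36 (chr22:23145326-23164350, plus strand), linked to the Golgi and to lysosome position, was at 7.63, 9.48 and 9.21 CPM in input and 13.6, 10.6 and 12.4 CPM in mock pellets. In dsRNA pellets RAB36 had 15, 12.7 and 13.2, in silvestrol pellets 14.1, 13.1 and 12.5 and in PEG pellets 7.66, 8.5 and 6.58 CPM. Its mock, dsRNA and silvestrol libraries lay above input, and its log2 fold change against input was 0.51 ± 0.15 in mock, 0.67 ± 0.15 in dsRNA, 0.62 ± 0.14 in silvestrol and -0.17 ± 0.16 in PEG pellets (SE). For RAB36 the adjusted p-values were 0.0393, 0.009, 0.0112 and 0.412. Each of the 6 libraries of the mock comparison decided that call, since leaving out any of them lost it, and the GC correction ended it too (0.30).

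RAB39A (chr11:107928503-107963482, plus strand), which has been linked to autophagy, was at 6.51, 5.88 and 4.21 CPM in input and 5.51, 5.96 and 6.17 CPM in mock pellets. In dsRNA pellets RAB39A had 5.13, 5.74 and 6, in silvestrol pellets 5.85, 6.43 and 5.88 and in PEG pellets 2.48, 1.93 and 1.83 CPM. Only the PEG libraries stood apart from input, all below it, and its log2 fold change against input was 0.13 ± 0.19 in mock, 0.07 ± 0.20 in dsRNA, 0.16 ± 0.19 in silvestrol and -1.38 ± 0.25 in PEG pellets (SE). For RAB39A the adjusted p-values were 0.645, 0.808, 0.535 and 0.00215. RAB18, which works at the ER and on lipid droplets, was lower in mock (-0.64), dsRNA (-0.67) and silvestrol (-0.71) and stood at -0.00 in PEG pellets. Its mock call was lost without mock replicate 2 or 3, the dsRNA call without dsRNA replicate 2 and the silvestrol call without silvestrol replicate 2, and the GC correction ended the mock and dsRNA calls and put PEG at 0.41, called higher. RAB34 was higher in PEG pellets alone among the tests against input, at 0.58, while RAB2B (-0.56) and RAB30 (-0.90) were lower in PEG pellets. With the GC correction the PEG calls of RAB34 and RAB30 ended, and RAB34 was called lower in mock (-0.47), dsRNA (-0.49) and silvestrol (-0.54) pellets. RAB34 also lost its PEG call without PEG replicate 2. RAB2B was, with that correction, called higher in mock (0.39) and silvestrol (0.35) pellets. RAB39B was lower in dsRNA (-0.54) and silvestrol (-0.46) pellets, calls that ended with the GC correction, without replicate 2 or 3 of the pellet or without input replicate 2, and in silvestrol also without silvestrol replicate 1 or input replicate 3.

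Of the 15 RABs of early and recycling endosomes, 5 were lower in mock pellets (median -0.44), 6 in dsRNA (median -0.42), 7 in silvestrol (median -0.42) and 6 in PEG pellets (median -0.31), where 3 were higher. The lower shares were 33.3%, 40%, 46.7% and 40%, beside 15.8%, 19.6%, 18.1% and 25.9% of all genes. The higher share in PEG pellets was 20%, beside 25.5%. RAB5A (chr3:19947079-19985175, plus strand), the switch for early endosome fusion, was at 52.7, 47.5 and 46.3 CPM in input and 27.1, 27.1 and 27.8 CPM in mock pellets. In dsRNA pellets RAB5A had 23.9, 29.3 and 29.8, in silvestrol pellets 25.3, 27.8 and 29.1 and in PEG pellets 20.9, 19.3 and 22.4 CPM. Every pellet library was below every input library, and PEG was lowest. The log2 fold change against input was -0.80 ± 0.10 in mock, -0.78 ± 0.13 in dsRNA, -0.80 ± 0.11 in silvestrol and -1.18 ± 0.13 in PEG pellets (SE). For RAB5A the adjusted p-values were 0.0036, 0.00382, 0.00275 and 0.000325. These are 0.574, 0.583, 0.574 and 0.44 times the input level.

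RAB5B and RAB5C share the early endosomal role of RAB5A. RAB5B stood at -0.25 (adjusted p = 0.164) in mock and at -1.03 (adjusted p = 0.000282) in PEG pellets. RAB5C stood at -0.51 (adjusted p = 0.0523) in mock, at -0.49 (adjusted p = 0.028) in silvestrol and at -0.09 (adjusted p = 0.535) in PEG pellets. Its silvestrol call was lost without silvestrol replicate 2 or 3 or input replicate 3, and the GC correction called it in mock (-0.69) and dsRNA (-0.65). No test compared them with RAB5A beyond the proportions within a library given further on.

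RAB11A (chr15:65726054-65891991, plus strand), the main RAB of recycling endosomes, was at 240.2, 211 and 197 CPM in input and 135, 132 and 138 CPM in mock pellets. In dsRNA pellets RAB11A had 121, 134 and 138, in silvestrol pellets 122, 131 and 145 and in PEG pellets 286, 334 and 341 CPM. It lay below input in every mock, dsRNA and silvestrol library and above it in every PEG library. The log2 fold change against input was -0.64 ± 0.12 in mock, -0.68 ± 0.13 in dsRNA, -0.68 ± 0.13 in silvestrol and 0.61 ± 0.14 in PEG pellets (SE). For RAB11A the adjusted p-values were 0.00723, 0.00534, 0.00654 and 0.00647. Scaled to total count, the PEG value was 0.27 and was not called, and with the GC correction the 4 values were -0.42, -0.41, -0.40 and 1.01, all called. RAB11B, its close relative, was lower in mock (-0.49), dsRNA (-0.43) and silvestrol (-0.42) and stood at -0.23 (adjusted p = 0.152) in PEG pellets. These calls were lost without mock replicate 3 in mock, and without replicate 2 or 3 of the pellet or of input in dsRNA and silvestrol, whereas with the GC correction RAB11B was called in all 4 groups (-0.98, -0.996, -0.97 and -0.60).

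RAB4A (chr1:229271062-229305894, plus strand), which serves fast recycling to the cell surface, was at 37, 39 and 38.5 CPM in input and 17.5, 19.9 and 23.1 CPM in mock pellets. In dsRNA pellets RAB4A had 16.4, 19.9 and 22.2, in silvestrol pellets 16.2, 18.4 and 21.5 and in PEG pellets 26.5, 34.5 and 29 CPM. All pellet libraries lay below input, PEG least so, and its log2 fold change against input was -0.89 ± 0.13 in mock, -0.93 ± 0.14 in dsRNA, -0.999 ± 0.13 in silvestrol and -0.30 ± 0.13 in PEG pellets (SE). For RAB4A the adjusted p-values were 0.00408, 0.00285, 0.00252 and 0.0838. RAB4B (chr19:40778216-40796938, plus strand) was at 4.58, 5.49 and 5.45 CPM in input and 4.41, 6.61 and 6.61 CPM in mock pellets. In dsRNA pellets RAB4B had 5.72, 6.56 and 6.36, in silvestrol pellets 4.94, 6.43 and 6.86 and in PEG pellets 8.79, 9.15 and 9.06 CPM. The dsRNA and PEG libraries lay above input, and its log2 fold change against input was 0.21 ± 0.20 in mock, 0.30 ± 0.16 in dsRNA, 0.26 ± 0.18 in silvestrol and 0.84 ± 0.15 in PEG pellets (SE). For RAB4B the adjusted p-values were 0.443, 0.158, 0.293 and 0.0018. Together, 2 read-through genes and an antisense gene share 32.5% of RAB4B exon bases, and 28.9% of RAB4A bases are shared with other genes.

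RAB20 (chr13:110523066-110561733, minus strand), a RAB of phagosome maturation, was at 2.15, 4.45 and 4.43 CPM in input and 3.81, 7.72 and 7.41 CPM in mock pellets. In dsRNA pellets RAB20 had 3.99, 8.19 and 7.58, in silvestrol pellets 3.88, 7.63 and 7.29 and in PEG pellets 6.46, 8.36 and 6.34 CPM. Replicate 1 was low in input, mock, dsRNA and silvestrol, and its log2 fold change against input was 0.80 ± 0.35 in mock, 0.86 ± 0.35 in dsRNA, 0.78 ± 0.34 in silvestrol and 0.97 ± 0.27 in PEG pellets (SE). For RAB20 the adjusted p-values were 0.121, 0.0794, 0.106 and 0.0141. With the replicate block the mock, dsRNA and silvestrol values were also called, at adjusted p = 2.41e-05, 0.000409 and 0.000338, and the PEG call was lost without PEG replicate 2. RAB31 was lower in all 4 pellet groups (-0.51, -0.62, -0.58 and -1.05 in mock, dsRNA, silvestrol and PEG). The GC correction ended all but the PEG call (-0.33, -0.39 and -0.38), the mock call was lost without mock replicate 2 or 3 or any 1 input library, and the silvestrol call without silvestrol replicate 2 or 3. RAB14 was lower in dsRNA (-0.61), silvestrol (-0.49) and PEG (-0.69), while RAB15 (-0.40) and RAB21 (-0.98) were called lower in PEG pellets and not in the other groups. The dsRNA and silvestrol calls of RAB14 were lost with the GC correction and without replicate 2 or 3 of the pellet, and the PEG call of RAB15 without input replicate 2 or 3.

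The 9 RABs of late endosomes and lysosomes split, with 3 lower and 1 higher in mock pellets and 2 lower and 3 higher in PEG pellets. In dsRNA pellets 5 were lower and 1 higher, and in silvestrol pellets 4 and 1. From mock to PEG, lower shares were 33.3%, 55.6%, 44.4% and 22.2%, beside 15.8%, 19.6%, 18.1% and 25.9% of all genes. Higher shares were 11.1%, 11.1%, 11.1% and 33.3%, beside 17.6%, 21.1%, 19.4% and 25.5%. The lower share in PEG pellets is near that of all genes. RAB7A (chr3:128726122-128814796, plus strand), which directs late endosomes to lysosomes, was at 289.9, 266 and 274 CPM in input and 223, 202 and 194 CPM in mock pellets. In dsRNA pellets RAB7A had 223, 195 and 205, in silvestrol pellets 212, 201 and 218 and in PEG pellets 238, 244 and 256 CPM. All pellet libraries were below all input libraries, by little in PEG, and its log2 fold change against input was -0.39 ± 0.11 in mock, -0.37 ± 0.12 in dsRNA, -0.36 ± 0.11 in silvestrol and -0.12 ± 0.12 in PEG pellets (SE). For RAB7A the adjusted p-values were 0.0315, 0.0355, 0.0356 and 0.397. The GC correction ended each of these calls, and they were also lost in mock without mock replicate 2 or 3 or input replicate 2 or 3, in dsRNA without dsRNA replicate 2 or 3 or input replicate 2 or 3 and in silvestrol without silvestrol replicate 2 or 3 or input replicate 2 or 3.

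RAB9A (chrX:13689125-13710506, plus strand), which returns receptors from late endosomes to the Golgi, was at 16.4, 15.2 and 16.7 CPM in input and 9.77, 9.88 and 9.48 CPM in mock pellets. In dsRNA pellets RAB9A had 8.75, 8.5 and 8.02, in silvestrol pellets 8.55, 9.59 and 9 and in PEG pellets 20.9, 25.2 and 21.8 CPM. Like RAB11A it lay below input in mock, dsRNA and silvestrol libraries and above it in PEG libraries. Its log2 fold change against input was -0.69 ± 0.11 in mock, -0.89 ± 0.12 in dsRNA, -0.80 ± 0.12 in silvestrol and 0.54 ± 0.13 in PEG pellets (SE). For RAB9A the adjusted p-values were 0.00552, 0.00263, 0.00336 and 0.00862. The PEG call was lost without PEG replicate 2, and the PEG value was 0.19 when scaled to total count and 0.86 with the GC correction. RAB9B (chrX:103822322-103832228, minus strand), its less abundant relative, was at 2.96, 2.24 and 2.27 CPM in input and 1.84, 1.04 and 1.49 CPM in mock pellets. In dsRNA pellets RAB9B had 1.4, 1.44 and 1.5, in silvestrol pellets 1.6, 1.65 and 1.27 and in PEG pellets 1.5, 1.19 and 1.24 CPM. All pellet libraries were below input, and its log2 fold change against input was -0.72 ± 0.27 in mock, -0.73 ± 0.21 in dsRNA, -0.69 ± 0.23 in silvestrol and -0.88 ± 0.26 in PEG pellets (SE). For RAB9B the adjusted p-values were 0.0719, 0.0272, 0.0448 and 0.0184. Calls of RAB9B were lost in dsRNA without dsRNA replicate 2 or 3 or input replicate 2 or 3, in silvestrol without any 1 of the 6 libraries and in PEG without PEG replicate 2 or 3, and with the GC correction in each of these groups.

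RAB24 (chr5:177301198-177303744, minus strand), an atypical RAB of autophagy, was at 13.2, 17.9 and 19.5 CPM in input and 26, 32.7 and 30.9 CPM in mock pellets. In dsRNA pellets RAB24 had 32.3, 30 and 34.9, in silvestrol pellets 25, 33.4 and 27.2 and in PEG pellets 32.2, 37.7 and 37.5 CPM. Every pellet library was above every input library, and its log2 fold change against input was 0.85 ± 0.17 in mock, 0.98 ± 0.16 in dsRNA, 0.78 ± 0.18 in silvestrol and 1.13 ± 0.15 in PEG pellets (SE). For RAB24 the adjusted p-values were 0.0098, 0.00372, 0.012 and 0.000637. It shares 44.8% of its exon bases with MXD3, so part of these reads may belong to that gene. With the GC correction RAB24 stood at 0.49 in mock and 0.54 in dsRNA, still called, and at 0.38 in silvestrol, not called. RAB38 (chr11:88113242-88175467, minus strand), a RAB of melanosomes and other lysosome-related organelles, was at 4.31, 6.79 and 6.5 CPM in input and 2.73, 4.62 and 4.37 CPM in mock pellets. In dsRNA pellets RAB38 had 1.73, 3.9 and 4.47, in silvestrol pellets 2.16, 4.26 and 4.11 and in PEG pellets 6.09, 7.12 and 8.02 CPM. Replicate 1 was the lowest in each group, and its log2 fold change against input was -0.56 ± 0.26 in mock, -0.77 ± 0.35 in dsRNA, -0.72 ± 0.30 in silvestrol and 0.32 ± 0.20 in PEG pellets (SE). For RAB38 the adjusted p-values were 0.136, 0.11, 0.0898 and 0.214. RAB32, which shares that role, was at 54.3, 50.8 and 54.8 CPM in input and 36.2, 39.9 and 36.8 CPM in mock pellets. In dsRNA pellets RAB32 had 34.4, 31.3 and 35.8, in silvestrol pellets 32.1, 37 and 37.8 and in PEG pellets 65.7, 76.3 and 63 CPM. It lay below input in mock, dsRNA and silvestrol and above it in PEG libraries, and its log2 fold change against input was -0.47 ± 0.10 in mock, -0.61 ± 0.11 in dsRNA, -0.55 ± 0.11 in silvestrol and 0.40 ± 0.12 in PEG pellets (SE). For RAB32 the adjusted p-values were 0.0124, 0.0048, 0.00791 and 0.0219. Its mock call was lost without mock replicate 3, and its PEG call with the GC correction (0.22), with scaling to total count and without PEG replicate 2 or input replicate 2 or 3. RAB29 was lower in dsRNA (-0.56) and PEG (-0.90) pellets.

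Exocytic and secretory RABs numbered 10, of which 4 were lower and 1 higher in mock, 6 and 1 in dsRNA, 5 and 1 in silvestrol and 3 and 1 in PEG pellets. Lower shares were 40%, 60%, 50% and 30%, beside 15.8%, 19.6%, 18.1% and 25.9% of all genes, the last pair being near each other. The higher share was 10% in each, beside 17.6%, 21.1%, 19.4% and 25.5%. RAB13 (chr1:153981617-153986358, minus strand), whose mRNA is known to collect in cell protrusions, was at 364, 263 and 276 CPM in input and 186, 159 and 153 CPM in mock pellets. In dsRNA pellets RAB13 had 171, 171 and 165, in silvestrol pellets 154, 161 and 156 and in PEG pellets 386, 337 and 440.2 CPM. The mock, dsRNA and silvestrol libraries were all below input, whereas PEG libraries overlapped it. The log2 fold change against input was -0.82 ± 0.16 in mock, -0.79 ± 0.15 in dsRNA, -0.91 ± 0.15 in silvestrol and 0.41 ± 0.18 in PEG pellets (SE). For RAB13 the adjusted p-values were 0.00914, 0.00567, 0.00401 and 0.0838. The replicate block gave the PEG value of RAB13 an adjusted p of 0.0456. RAB8A (chr19:16111629-16134234, plus strand), which drives exocytosis and cilium growth, was at 64.1, 33.5 and 35.5 CPM in input and 30.4, 22.9 and 21.3 CPM in mock pellets. In dsRNA pellets RAB8A had 26.2, 22.6 and 23.1, in silvestrol pellets 29.1, 21 and 22.3 and in PEG pellets 36.7, 35.8 and 33.1 CPM. Input replicate 1 stood well above the other input libraries, and its log2 fold change against input was -0.80 ± 0.27 in mock, -0.84 ± 0.25 in dsRNA, -0.85 ± 0.26 in silvestrol and -0.30 ± 0.25 in PEG pellets (SE). For RAB8A the adjusted p-values were 0.0553, 0.0272, 0.0366 and 0.351. The replicate block called the mock value, with an adjusted p of 1.14e-06. HSH2D and an antisense gene together share 41.7% of its exon bases, and calls were lost in dsRNA without dsRNA replicate 1 or 2 or 3 and in silvestrol without silvestrol replicate 2 or 3.

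RAB3A (chr19:18196784-18204074, minus strand), known from synaptic vesicle release, was at 4.09, 4.1 and 3.79 CPM in input and 1.99, 1.94 and 2.04 CPM in mock pellets. In dsRNA pellets RAB3A had 2.42, 2.43 and 1.86, in silvestrol pellets 2.68, 1.54 and 2.23 and in PEG pellets 1.95, 3.11 and 3.22 CPM. All pellet libraries lay below input, and its log2 fold change against input was -0.97 ± 0.16 in mock, -0.79 ± 0.19 in dsRNA, -0.86 ± 0.23 in silvestrol and -0.47 ± 0.23 in PEG pellets (SE). For RAB3A the adjusted p-values were 0.00609, 0.0131, 0.0222 and 0.116. Calls of RAB3A were lost in dsRNA without dsRNA replicate 3 and in silvestrol without silvestrol replicate 2 or 3 or input replicate 2, and with the GC correction the dsRNA value was -1.20 and the PEG value, then called, -0.75. RAB3D (chr19:11322046-11346270, minus strand), of secretory granules, was at 0.449, 0.787 and 0.858 CPM in input and 0.79, 0.844 and 1.29 CPM in mock pellets. In dsRNA pellets RAB3D had 0.764, 0.944 and 1.19, in silvestrol pellets 0.909, 1.07 and 0.854 and in PEG pellets 0.676, 0.84 and 0.842 CPM. Its groups overlapped, and its log2 fold change against input was 0.47 ± 0.33 in mock, 0.47 ± 0.32 in dsRNA, 0.43 ± 0.30 in silvestrol and 0.20 ± 0.33 in PEG pellets (SE). For RAB3D the adjusted p-values were 0.303, 0.273, 0.292 and 0.634. RAB26 (chr16:2140803-2154165, plus strand), also of secretory granules, was at 27, 28.8 and 30.2 CPM in input and 40.2, 35 and 37.6 CPM in mock pellets. In dsRNA pellets RAB26 had 41.2, 38.8 and 39.9, in silvestrol pellets 40.3, 40.8 and 37.9 and in PEG pellets 49.1, 46.2 and 48.2 CPM. Every pellet library was above every input library, and its log2 fold change against input was 0.43 ± 0.11 in mock, 0.52 ± 0.11 in dsRNA, 0.50 ± 0.11 in silvestrol and 0.79 ± 0.11 in PEG pellets (SE). For RAB26 the adjusted p-values were 0.0214, 0.00735, 0.0088 and 0.000724. The GC correction brought RAB26 to -0.03 in mock, -0.01 in dsRNA and -0.01 in silvestrol pellets, with no call, and left the PEG call, at 0.44. Its mock call was also lost in mock without mock replicate 3 or input replicate 2 or 3. RAB10, a RAB of insulin-regulated and polarised exocytosis, was lower in all 4 pellet groups (-0.54, -0.63, -0.63 and -0.55). RAB10 lost its mock call without mock replicate 3 and kept its 4 calls with the GC correction, at -0.35, -0.38, -0.39 and -0.29. RAB8B was lower in mock (-0.43), silvestrol (-0.52) and PEG (-0.97) pellets, RAB27A, which docks secretory lysosomes and exosomes, in dsRNA pellets (-0.70), and RAB27B in dsRNA (-0.86) and PEG pellets (-1.08). For RAB8B the GC correction ended the mock and silvestrol calls, which were also lost in mock without any 1 mock library or input replicate 2 and in silvestrol without silvestrol replicate 2, and put PEG at -0.56. For RAB27A it ended the call (-0.40, adjusted p = 0.199), also lost without dsRNA replicate 2 or 3 or input replicate 1. For RAB27B it ended both calls (-0.59 and -0.64), which were also lost in dsRNA without any 1 dsRNA library or input replicate 1 or 2, and in PEG without PEG replicate 1 or 3 or input replicate 1.

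The remaining 6 members include the cilium RABs and the RAB40 subfamily, whose proteins carry a SOCS box that recruits a ubiquitin ligase. RAB40C was the 1 member of this group called higher against input in each pellet group. That is 16.7% of the 6 each time, beside 17.6%, 21.1%, 19.4% and 25.5% of all genes in mock, dsRNA, silvestrol and PEG. RAB40C (chr16:589357-629272, plus strand) was at 27.2, 32.6 and 34.2 CPM in input and 71, 65.1 and 78.7 CPM in mock pellets. In dsRNA pellets RAB40C had 89.1, 65.1 and 75.2, in silvestrol pellets 81.4, 70.3 and 72.6 and in PEG pellets 44.3, 44.2 and 42 CPM. Each pellet library was above each input library, and mock, dsRNA and silvestrol libraries were above PEG libraries. Its log2 fold change against input was 1.23 ± 0.13 in mock, 1.33 ± 0.16 in dsRNA, 1.28 ± 0.13 in silvestrol and 0.52 ± 0.12 in PEG pellets (SE). For RAB40C the adjusted p-values were 0.00358, 0.00244, 0.00244 and 0.00655. These are 2.34, 2.51, 2.44 and 1.43 times the input level. The GC correction reduced the mock value to 0.71, still called, and the PEG value to 0.14, not called, as it was also not with scaling to total count. RAB40B (chr17:82654973-82698728, minus strand) was at 12.9, 19 and 17.7 CPM in input and 11.2, 14.5 and 15.7 CPM in mock pellets. In dsRNA pellets RAB40B had 12.6, 15.8 and 16.4, in silvestrol pellets 11.2, 15.5 and 16.7 and in PEG pellets 14.1, 20.4 and 18.8 CPM. Groups overlapped, and its log2 fold change against input was -0.23 ± 0.19 in mock, -0.11 ± 0.18 in dsRNA, -0.16 ± 0.20 in silvestrol and 0.15 ± 0.18 in PEG pellets (SE). For RAB40B the adjusted p-values were 0.375, 0.647, 0.547 and 0.51.

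RAB23 (chr6:57186992-57222314, minus strand), an inhibitor of Hedgehog signalling, was at 36.7, 23.6 and 22.7 CPM in input and 23.3, 15.7 and 14.4 CPM in mock pellets. In dsRNA pellets RAB23 had 18.5, 14.9 and 15.2, in silvestrol pellets 20.7, 16.9 and 15.8 and in PEG pellets 10.1, 7.61 and 7.77 CPM. Every PEG library was below every other library, and its log2 fold change against input was -0.60 ± 0.25 in mock, -0.73 ± 0.21 in dsRNA, -0.60 ± 0.21 in silvestrol and -1.67 ± 0.24 in PEG pellets (SE). For RAB23 the adjusted p-values were 0.103, 0.0243, 0.0532 and 0.000747. BAG2 on the other strand shares 57.7% of its exon bases, and the dsRNA call was lost without dsRNA replicate 2 or 3 and with the GC correction (-0.44, adjusted p = 0.111). RAB28, a cilium RAB, was lower in mock (-0.42), dsRNA (-0.48) and silvestrol (-0.45) pellets, calls that the GC correction ended. They were also lost without any 1 pellet library in mock and silvestrol, without dsRNA replicate 2 or 3, and without input replicate 2 or 3. Members not called against input in any pellet group were RAB12, RAB17, RAB1B, RAB22A, RAB35, RAB38, RAB3B, RAB3D, RAB40A, RAB40B, RAB42, RAB6C, RAB6D and RAB7B. They are 14 of 56 members (25%), near the 28.8% of all genes.

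**Figure D2:**
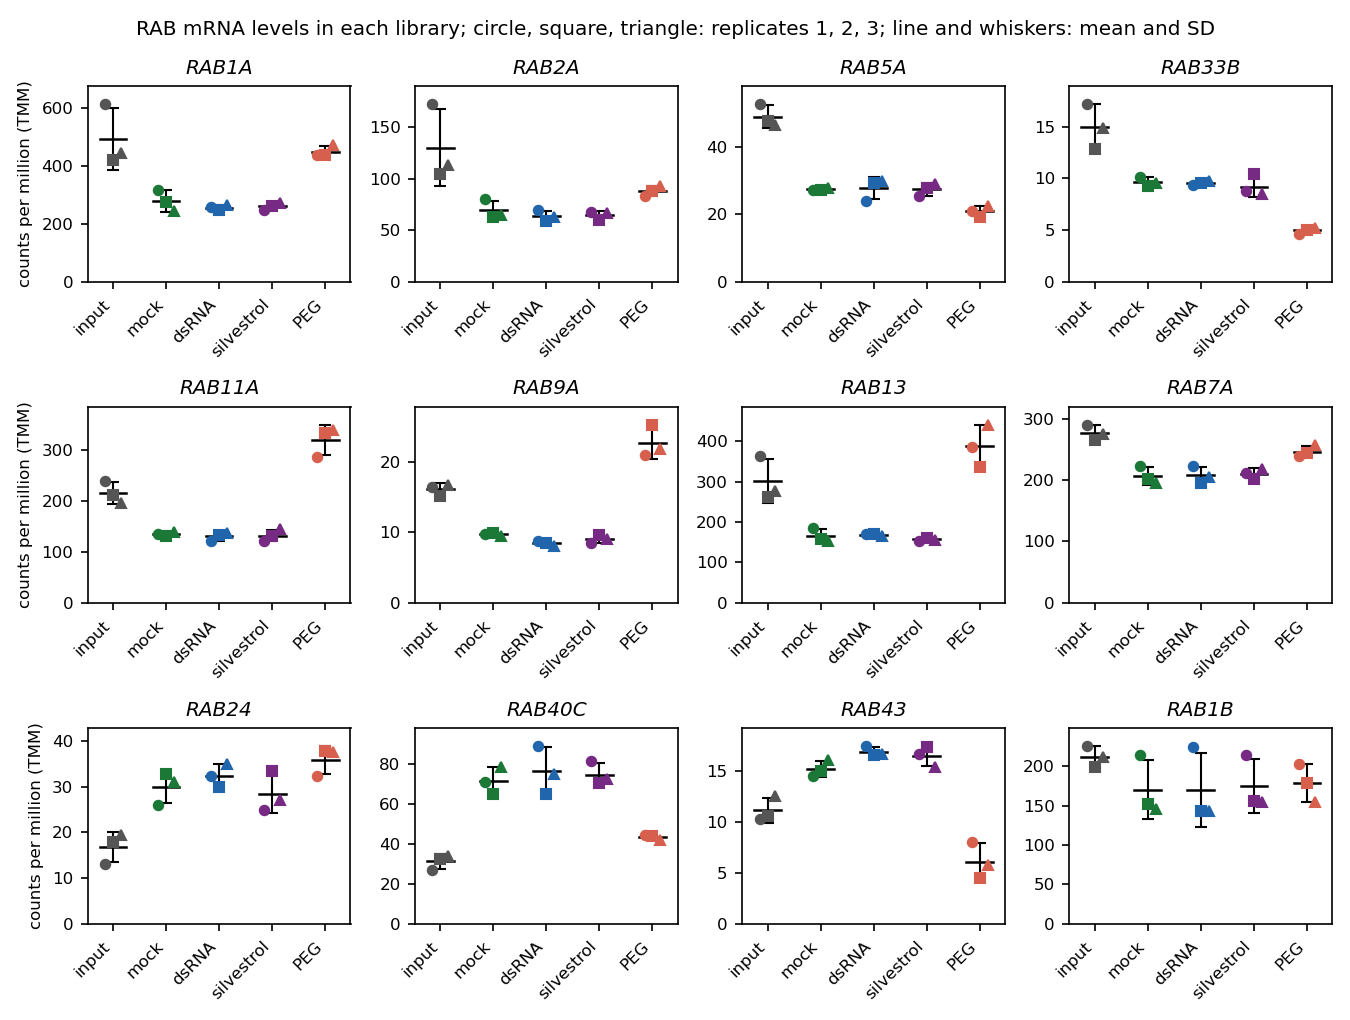
Level of 12 RAB mRNAs in CPM (y axis, from 0) in the 3 libraries of each group (points), with the mean (line) and SD (whiskers). RAB5A and RAB33B are lowest in PEG pellets, RAB11A and RAB9A fall below input in mock, dsRNA and silvestrol pellets and lie above it in PEG pellets, RAB43 shows the reverse, and RAB40C and RAB24 lie above input throughout.

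The next comparisons asked whether a stress agent changed the RAB content of the pellet beyond that of the mock pellet. With edgeR and no replicate block, 0 of the 56 members were called higher or lower in dsRNA against mock and 0 in silvestrol against mock, beside 0% of all genes in both directions. DESeq2 called 0 members in both, where it called 65 of all 16612 genes lower in dsRNA against mock and 0 in silvestrol against mock. At an unadjusted p under 0.05, edgeR passed 1 member in dsRNA against mock, beside 374 of all genes. In silvestrol against mock it passed 0 members, beside 35 of all genes. The member passing in dsRNA was RAB6A, which was at 91.8, 84.3 and 86.5 CPM in mock and 73.5, 72.6 and 75 CPM in dsRNA pellets. Those libraries did not overlap, with a log2 fold change of -0.25 ± 0.09 (SE, adjusted p = 1). With the replicate block RAB6A was called (adjusted p = 0.0201), beside 2.65% of all genes lower and 0.15% higher. The block cut the members' median SE in dsRNA against mock from 0.141 to 0.0726. In silvestrol against mock it called 0 members, beside 2 of 16612 genes higher and 0 lower. Members ran from -0.30 to 0.22 in dsRNA and from -0.26 to 0.20 in silvestrol against mock.

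PEG pellets differed from mock pellets in 35 members, 18 higher (32.1%, beside 31.3% of all genes) and 17 lower (30.4%, beside 32.2%), which is about the share of all genes. Without PEG replicate 3, 10 were lower, and over all genes 4272 in place of 5350. The largest rise was that of RAB11A, 1.32 ± 0.12 (SE, adjusted p = 1.51e-05), followed by RAB9A at 1.29 ± 0.13 (adjusted p = 2.66e-05), RAB13 at 1.29 ± 0.15 (adjusted p = 4.95e-05) and RAB38 at 0.94 ± 0.22 (adjusted p = 0.00433). Among those lower were RAB39A at -1.44 ± 0.20 (adjusted p = 0.000178), RAB43 at -1.25 ± 0.20 (adjusted p = 0.000428), RAB23 at -1.01 ± 0.22 (adjusted p = 0.00261) and RAB6A at -0.96 ± 0.12 (adjusted p = 0.000109). RAB5A, at -0.32 ± 0.12 (adjusted p = 0.0352), lost its call when any of 5 of the 6 libraries was left out. RAB40C was lower in PEG than in mock pellets by -0.65 ± 0.12 (adjusted p = 0.000851), although above input in both. Scaled to total count, which moved the median of all genes to -0.50, 4 members were higher, beside 18.8% of all genes, RAB11A, RAB13, RAB32 and RAB9A, and 28 lower, beside 49.8%, and RAB24, RAB26, RAB2A, RAB40B and RAB7A turned from above to below 0.

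Late endosomal and lysosomal RABs had 5 of 9 higher and 1 lower in PEG against mock, with a median of 0.33. ER and Golgi RABs had 4 of 16 higher and 7 lower, with a median of -0.50. Early and recycling endosome RABs had 5 of 15 in each direction, exocytic RABs 3 of 10 higher and 2 lower, and the remaining members 1 of 6 higher and 2 lower. Over all genes, 31.3% were higher and 32.2% lower, and the early and recycling endosome RABs, at 33.3% each way, are near that. These role groups were described and not tested against each other.

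Partners of a pair were compared within each library, where the ratio of their counts does not depend on depth or scaling. The ratio still depends on each library's trend with GC content, which was not removed from it. Transcript GC content was 38.3% in RAB1A and 61.1% in RAB1B, and 37.2% in RAB11A and 63.5% in RAB11B. Of 21 pairs listed 20 had both partners kept. With 3 libraries against 3, the exact permutation test cannot go below p = 0.1 (adjusted 0.167 over 80 tests), so no ratio could pass the threshold. Pairs that share a gene are not independent.

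The log2 ratio of RAB40B to RAB40C counts was -1.07, -0.78 and -0.95 in input, -2.67, -2.16 and -2.33 in mock, -2.83, -2.04 and -2.20 in dsRNA, -2.86, -2.18 and -2.12 in silvestrol and -1.65, -1.12 and -1.16 in PEG pellets. Every pellet library lay below every input library, and the shifts were -1.45, -1.42, -1.45 and -0.38. RAB3A to RAB3D gave 3.12, 2.37 and 2.13 in input, 1.32, 1.19 and 0.65 in mock, 1.64, 1.35 and 0.63 in dsRNA, 1.55, 0.52 and 1.37 in silvestrol and 1.48, 1.86 and 1.90 in PEG pellets. These also did not overlap input in any group, with shifts of -1.49, -1.33, -1.39 and -0.79, but rest on the low counts of RAB3D.

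For RAB6A to RAB6B the log2 ratio was 1.09, 1.07 and 1.07 in input, 0.52, 0.59 and 0.68 in mock, 0.08, 0.29 and 0.30 in dsRNA, 0.38, 0.59 and 0.53 in silvestrol and -0.40, -0.51 and -0.31 in PEG pellets. In PEG pellets RAB6B counts thus exceeded RAB6A counts, the reverse of input, and the shift was -1.49, against -0.48 in mock, -0.86 in dsRNA and -0.58 in silvestrol. For RAB9A to RAB9B it was 2.46, 2.76 and 2.88 in input, 2.40, 3.23 and 2.65 in mock, 2.63, 2.55 and 2.41 in dsRNA, 2.41, 2.53 and 2.81 in silvestrol and 3.76, 4.38 and 4.11 in PEG pellets. Only the PEG libraries were clear of input, all above, with a shift of 1.39.

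RAB1A and RAB1B, the most abundant pair, gave 1.44, 1.07 and 1.06 in input, 0.57, 0.85 and 0.75 in mock, 0.19, 0.79 and 0.87 in dsRNA, 0.22, 0.75 and 0.81 in silvestrol and 1.11, 1.28 and 1.603 in PEG pellets. Shifts of -0.47, -0.57 and -0.60 in mock, dsRNA and silvestrol left no overlap with input, while the PEG shift of 0.14 did overlap. With the GC correction, however, the mock fold change of RAB1B lay below that of RAB1A. RAB2A to RAB2B shifted by -1.04, -0.93 and -1.07 in these 3 groups and by 0.07 in PEG pellets, and RAB4A to RAB4B shifted by -1.09, -1.24, -1.26 and -1.16. RAB11A to RAB11B shifted by -0.15 in mock and by 0.85 in PEG pellets. With the GC correction the mock fold change of RAB11A lay above that of RAB11B, opposite in direction to the shift of -0.15.

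**Figure D3:**
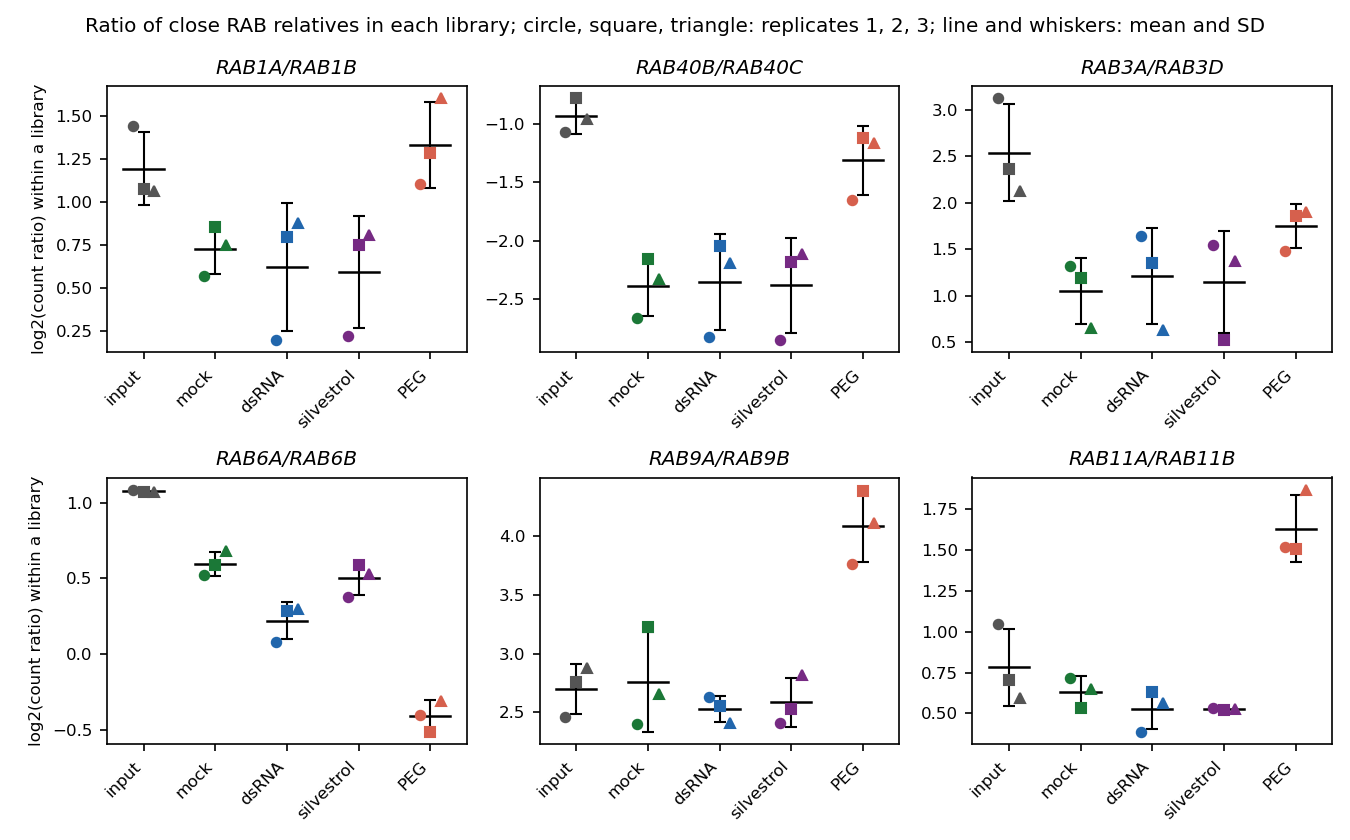
Log2 ratio of the counts of 2 related RAB mRNAs within each library (y axis, scaled separately in each panel), for the 5 groups, with 3 libraries as points and the mean and SD as line and whiskers. RAB40B/RAB40C and RAB3A/RAB3D lie below input in all pellets, RAB6A/RAB6B is lowest in PEG pellets, and RAB9A/RAB9B and RAB11A/RAB11B are highest in PEG pellets. The ratios are not corrected for GC content.

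The members were next described by the base composition and length of their mRNAs, properties that the rule for members did not use. Members had a median transcript GC content of 45.1%, against 49.3% over all genes, and a median of 2133 bases after the coding sequence, against 1209. Across the 56 members, the Spearman correlation between GC content of the coding sequence and log2 fold change against input was 0.66 in mock, 0.70 in dsRNA, 0.68 in silvestrol and 0.48 in PEG pellets, against 0.46, 0.50, 0.49 and 0.27 across all genes. The points share their libraries, so these are descriptions across genes and the 4 groups share their input. Of the 28 members at or below the median GC content, 12 were lower in mock pellets, with a median log2 fold change of -0.49. The 28 above it had 5 lower and 5 higher, with a median of -0.17. In PEG pellets the same groups had 14 lower and 2 higher (median -0.56) and 4 lower and 7 higher (median 0.16). All genes, not split by GC content, had 15.8% lower and 17.6% higher in mock and 25.9% and 25.5% in PEG pellets. Genes outside the family with like GC content were not counted, so a difference from the general trend was not tested.

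Length went with the PEG values. Summed exon length had a Spearman correlation of -0.38 with the log2 fold change in PEG pellets and of -0.06, -0.07 and -0.07 in mock, dsRNA and silvestrol pellets, where all genes had -0.48, 0.18, 0.18 and 0.18. For the length of the representative transcript the correlation was -0.55 in PEG pellets and -0.11 in mock pellets, against -0.58 and 0.24 over all genes. RAB24, with a transcript of 1311 bases, was high and RAB23, with 4837 bases, was low in PEG pellets, but RAB11A was high with 4930 bases and RAB39A was low with 1830.

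**Figure D4:**
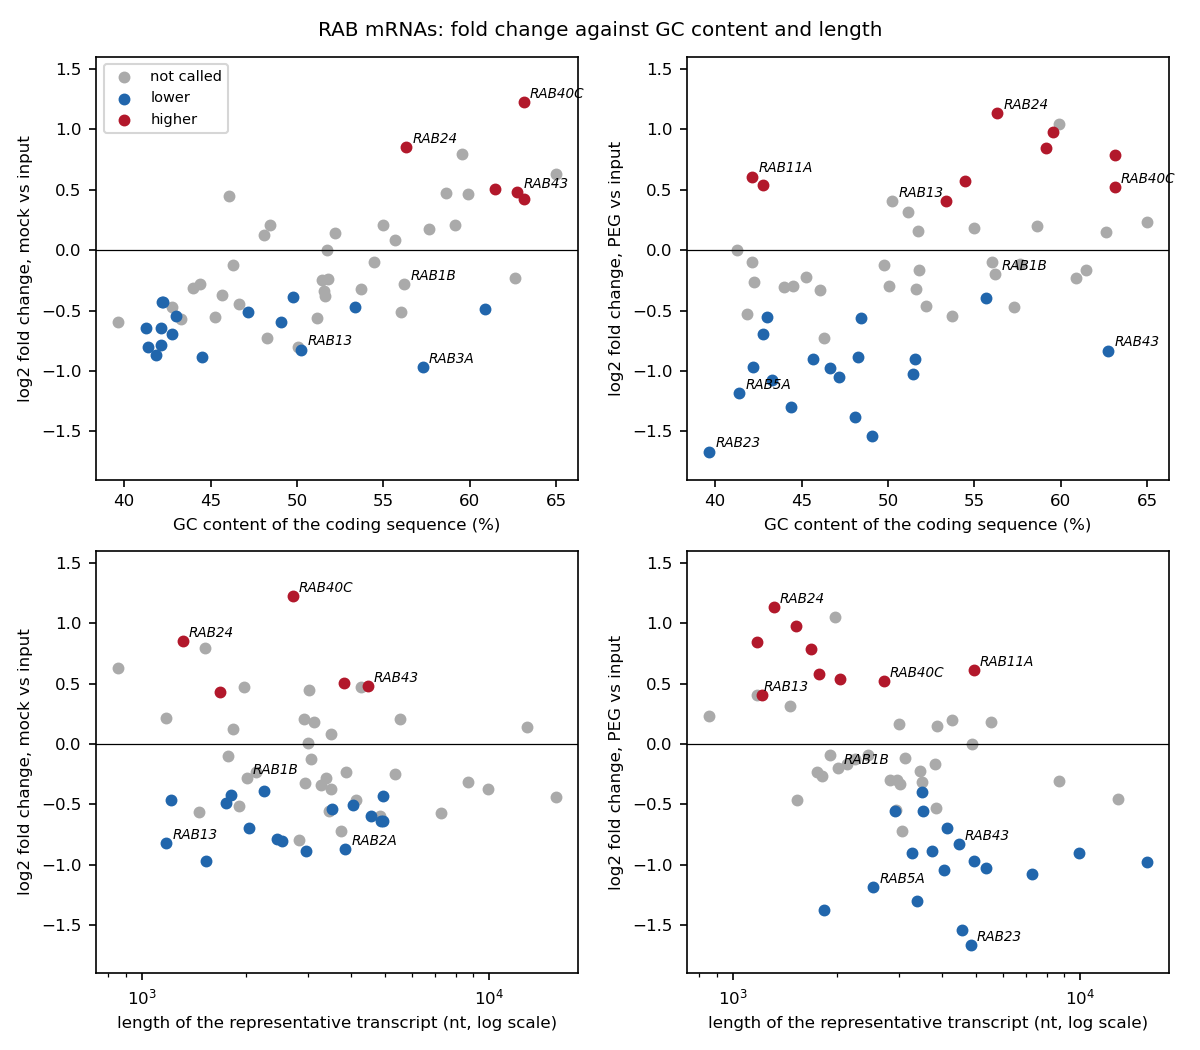
Log2 fold change against input (y axes) of the 56 RAB mRNAs in mock (left) and PEG pellets (right), by GC content of the coding sequence in % (top) and length of the representative transcript in bases on a log axis (bottom). Members called lower are blue, higher red and not called grey: values rise with GC content in both comparisons (Spearman correlation 0.66 and 0.48) and fall with length in PEG pellets (-0.55).

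Genes that act on RABs were counted from lists taken from textbook knowledge. In mock pellets 11 of 46 exchange factors kept were higher and 3 lower, among them MADD at 0.83 and TRAPPC1 at -0.88, which is 23.9% and 6.52% beside 17.6% and 15.8% of all genes. Of 37 GAPs, 13 were higher and 2 lower, with TBC1D24 at 0.87 and TBC1D15 at -0.52, and of 43 effectors 16 were higher and 4 lower, with MICAL1 at 1.26 and OPTN at -0.76. These are 35.1% and 5.41% of GAPs and 37.2% and 9.3% of effectors. The medians were 0.14, 0.34 and 0.22, above 0 where the RABs themselves had -0.35. These lists also had longer mRNAs, with median exon lengths of 7216, 6921 and 7428 bases, against 3906.5 for the RABs. Their median GC contents were 50%, 51.1% and 49.5%, against 45.1%. The part of length and GC content in these medians was not tested. In PEG pellets the same lists had 11 higher and 18 lower, 3 higher and 17 lower, and 5 higher and 24 lower, or 23.9% and 39.1%, 8.11% and 45.9%, and 11.6% and 55.8%, beside 25.5% and 25.9% of all genes. The share of exchange factors that were higher there is near that of all genes. Of 7 genes for RAB prenylation and delivery, 2 were lower in mock pellets, GDI2 the lowest at -0.96, and in PEG pellets 3 were higher, RABGGTB the highest at 1.11, and 2 lower, CHM the lowest at -1.32.

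Values of 2 other small GTPase groups follow. In mock pellets, where 17.6% of all genes were higher and 15.8% lower, ARF and ARL genes had 3 of 27 higher (11.1%) and 10 lower (37%). Their median was -0.28. RAS genes had 0 of 23 higher and 9 lower (39.1%) there, with a median of -0.35. The lowest of each were ARL3 at -1.03 and RAP1A at -1.13. In PEG pellets ARF and ARL genes had 7 higher (25.9%) and 9 lower (33.3%), and RAS genes 4 (17.4%) and 10 (43.5%). Beside 25.5% and 25.9% of all genes, the first of these is near the background.

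The 7 RAB genes not kept were RAB19, RAB25, RAB33A, RAB37, RAB3C, RAB40AL and RAB41. Their counts ranged from 0 to 34 in a library. RAB41 passed in 4 of the 5 conditions, with 13 to 25 counts in mock pellets and 14 to 29 in input. It failed in PEG pellets, where it had 6 to 9 counts. PEG libraries held 15341973 to 25675182 reads and input libraries 23101982 to 46939993, and the part of depth was not tested. RAB25 and RAB3C passed in 2 conditions, and RAB19, RAB33A, RAB37 and RAB40AL in none.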

How the data were processed

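Poly(A)-selected RNA of 15 U2OS libraries was sequenced, and the deposited values are raw counts of reads for every gene and library, which the authors had not normalised. The submitters' processing notes name Trimmomatic 0.36, STAR 2.5.2b, featureCounts of Subread 1.5.2 and GRCh38. The strand setting is not given in the sources used here, so a read in 2 overlapping, antisense or near-identical genes could belong to either.

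Gene IDs were paired with GENCODE 29, where 56898 of 57500 were found and 54773 had the same start and end. Among the 16612 genes kept, 16539 had a symbol and 16529 a GC content. Representative transcripts were principal protein-coding isoforms. RAB44 fell outside the name range. Genes with at least 10 counts in 2 or more replicates of each condition were kept. Counts were scaled by edgeR's TMM method and tested with the quasi-likelihood F test of edgeR 4.0.16 (R 4.3.3), fitted to the 6 libraries compared. Tests were two-sided, with Benjamini-Hochberg over all genes kept, adjusted p under 0.05 and edgeR's default prior count. The study's methods name DESeq2, and DESeq2 1.42.0 was run as an alternative. The fit was tested on simulated data. CPM values use TMM library sizes. Ratios of relatives used counts plus 0.5 and exact two-sided permutation tests in scipy 1.17.1. Where nothing in the labels ties replicates to separate cultures beyond the word biological, p-values measure the spread between these libraries. Figures were drawn with matplotlib 3.10.9.

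The replicate numbers were taken to pair the libraries, and the replicate block was an alternative. Deviations from the group means correlated between same-numbered libraries at 0.14 to 0.886 (30 pairs of libraries), against -0.787 to 0.629 for other numbers (60 pairs). Replicate 1 correlated negatively with numbers 2 and 3 throughout, but those were less clearly told apart. Input 2 correlated at 0.621 with mock 2 and 0.629 with mock 3, and mock 2 at 0.70 with dsRNA 2 and 0.591 with dsRNA 3. The deviations sum to 0 within a group, which pulls down correlations between other numbers. The ranges thus do not show that numbers 2 and 3 pair. No 2 libraries were identical.

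The members, the gene lists and the named genes were chosen with earlier results of these data known. Full values were printed for up to 4 called members with the largest rise and fall per comparison, for RAB1A, RAB5A, RAB7A, RAB8A, RAB11A and RAB13, for up to 4 pairs with the largest shift and for the 3 highest levels. RAB32 was added after its values were seen. Intervals and SD cover the spread of 3 libraries, and depth limits the members with few counts most. One further gene list is not reported here.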

Additional observations from a re-analysis of the deposited data

Results flagged for a closer look

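RAB11A, RAB9A and RAB32 stood below input in mock pellets and above it in PEG pellets. Calls lower in mock, dsRNA and silvestrol and higher in PEG pellets were made for 3 of 56 members (5.36%), beside 5.69% of all genes. The test of PEG against mock pellets gave log2 fold changes of 1.32, 1.29 and 0.93, with adjusted p-values of 1.51e-05, 2.66e-05 and 0.000102 by edgeR. These members were picked for their opposite signs against input, so that test is not independent of the choice. RAB43 showed the reverse, above input in mock and below it in PEG pellets, with a log2 fold change of -1.25 between them (adjusted p = 0.000428), in a gene that shares 79.3% of its exon bases with a read-through gene. That reverse was called for 1 of 56 members (1.79%), beside 4.37% of all genes. Scaled to total count, RAB11A, RAB9A and RAB32 stayed higher in PEG than in mock pellets. With that scaling, however, none of the 3 was called higher than input in PEG pellets. The PEG call of RAB9A against input was also lost without PEG replicate 2. That of RAB32 was lost without PEG replicate 2 or input replicate 2 or 3, and with the GC correction. RAB41, which was not kept, reached 34 counts in a dsRNA library and had 6 to 9 counts in PEG pellets. The part of depth in that difference was not tested.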

How the results depend on the processing

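The counts of RAB mRNAs called moved more than their directions. With the replicate block, mock pellets had 35 lower and 9 higher in place of 17 and 5, silvestrol pellets 8 higher in place of 5, and dsRNA against mock 1 lower in place of 0, while all 88 named values kept their call and direction. DESeq2 with the block, chosen after seeing the data, gave 33 lower in mock and 1 lower in dsRNA against mock. With the GC correction mock and silvestrol had 3 higher each, and with block and GC correction mock had 8 higher and 29 lower, silvestrol 9 higher and dsRNA against mock 1 lower. Correction for GC and length gave 3 higher and 10 lower in mock, 16 lower in dsRNA and 13 lower in silvestrol. No filter on low counts left 3 higher in mock, and 1 fit of all 5 groups gave 26 lower. Scaling to total count gave 3 higher and 35 lower in PEG against input and 4 higher and 28 lower in PEG against mock. Over all 16612 genes, mock pellets had 4485 lower by DESeq2 with the block and 4930 with block and GC correction. Block and GC correction also gave 5160 genes higher in mock, 4945 higher in silvestrol and 441 lower in dsRNA against mock. DESeq2 with the block gave 297 lower in dsRNA against mock. Mock pellets had 1780 higher and 2026 lower with correction for GC and length, and 3584 lower in 1 fit of all 5 groups. Correction for GC and length left 2536 lower in dsRNA and 2318 in silvestrol pellets. With no filter, 2826 of 37968 genes were higher in mock. The cause of these moves was not tested.

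Leaving out 1 library gave 2 to 5 higher and 6 to 24 lower in mock, 5 to 6 higher and 14 to 27 lower in dsRNA, 4 to 6 higher and 10 to 24 lower in silvestrol, 5 to 14 higher and 16 to 20 lower in PEG against input, and 12 to 21 higher and 10 to 16 lower in PEG against mock. The lowest and highest values came without mock replicate 3 (6 lower), without dsRNA replicate 2 or 3 (14 lower), without silvestrol replicate 2 (10 lower), without PEG replicate 2 (5 higher) and input replicate 1 (14 higher), and without PEG replicate 3 (10 lower against mock). Counts over all genes also moved in these fits, as given above. The fit with 24 members lower in mock, without mock replicate 1, had 2854 of all genes lower. That with 27 lower in dsRNA, without dsRNA replicate 1, had 3284. That with 24 lower in silvestrol, without input replicate 1, had 3283. In PEG against mock, 12 higher without mock replicate 2 stood beside 4712 of all genes, and 21 without mock replicate 1 beside 5669. Of 528 named values with a library left out, 439 kept their call, 89 lost it and 0 turned.

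Values that turned were RAB26 with the GC correction, at -0.032 in mock, -0.014 in dsRNA and -0.013 in silvestrol (-0.039, -0.011 and -0.012 with the block), and, in PEG against mock, RAB24 at -0.14, RAB26 at -0.042, RAB2A at -0.055, RAB40B at -0.035 and RAB7A at -0.14 with scaling to total count and RAB24 at -0.24 and RAB7A at -0.22 with correction for GC and length. With the longest annotated transcript in place of summed exons, the Spearman correlation between length and the PEG value was -0.48.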
